A study of Mus musculus with 9 samples.

Results

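The 46 genes described here encode the antioxidant and glutathione systems of the cell. They were listed by symbol, with earlier results of these data known, as the superoxide dismutases, glutathione peroxidases, peroxiredoxins, thioredoxin system, glutathione enzymes, glutathione transferases, glutaredoxins, metallothioneins and NRF2 pathway. All 46 were found among the 48820 genes of the deposited RNA-seq table, and all 46 were among the 13618 genes that entered the tests. The study followed the hearts of C57BL/6J mice around birth, when the heart leaves placental oxygen supply and turns from glucose to fatty acids. RNA was sequenced from whole hearts at embryonic day 18.5 (E18.5d) and at postnatal days 1 (P1d) and 7 (P7d), with 3 biological replicates per stage and 9 hearts in all. Every heart was labelled WT, untreated and male, so stage was the only labelled difference between groups.

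Superoxide dismutases turn superoxide into hydrogen peroxide, which catalase, the glutathione peroxidases and the peroxiredoxins then reduce to water. The peroxidases draw their electrons from glutathione or thioredoxin, which glutathione reductase and the thioredoxin reductases recharge with NADPH. The transcription factor NRF2 (*Nfe2l2*), held in check by KEAP1, turns on many of these genes, and in heart muscle, which makes most of its ATP in mitochondria, the same systems guard against peroxides that leak from respiration.

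Levels are in FPKM, fragments per kilobase and per 1e6 fragments mapped, so that levels of different genes can be set beside each other. Changes are differences in log2(FPKM + 1), tested with limma across all 13618 genes and adjusted by the Benjamini-Hochberg method, and a gene was called higher or lower at an adjusted p under 0.05. The depth read from the spacing of low FPKM values was 25.5 to 45.0 times 1e6 fragments per heart. The 9 hearts did not all match their labels. *Xist*, which coats the silenced X, ranged from 58.0 to 97.0 FPKM in 4 hearts labelled male (E18.5d replicates 1 and 3, P7d replicates 2 and 3) and 0.11 FPKM or less in the remaining 5, and 4 Y-linked genes were at 0 in those 4 hearts. No P1d heart was among them. The airway gene *Scgb3a2* stood at 53.2 and 127.1 FPKM in E18.5d replicates 1 and 2 and at 179.2 FPKM in P1d replicate 1, and at no more than 1.0 FPKM in the other 6 hearts. Cardiomyocyte markers were high throughout but moved with stage. Their 8 genes summed to 33725 to 36146 FPKM at E18.5d, 38611 to 43605 FPKM at P1d and 41401 to 43227 FPKM at P7d. Against E18.5d, 5 of the 8 were called higher and 0 lower at P1d, and 5 higher and 1 lower at P7d. Results below are given for all 9 hearts, and the calls that stay without the hearts in question are counted after them.

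The most abundant members were *Txnip*, *Prdx2* and *Gpx4*, with means over the 9 hearts of 435, 413 and 360.4 FPKM. In all, 11 of the 46 genes had a mean of at least 100 FPKM, 28 lay between 10 and 100 FPKM and 7 were below 10 FPKM. The lowest was *Sod3*, the secreted superoxide dismutase, at 1.37 FPKM. Of the 46, 27 had their highest stage mean at P1d, 13 at E18.5d and 6 at P7d, and 30 had their lowest at P7d. The same counts were not made for all genes.

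**Figure D1:**
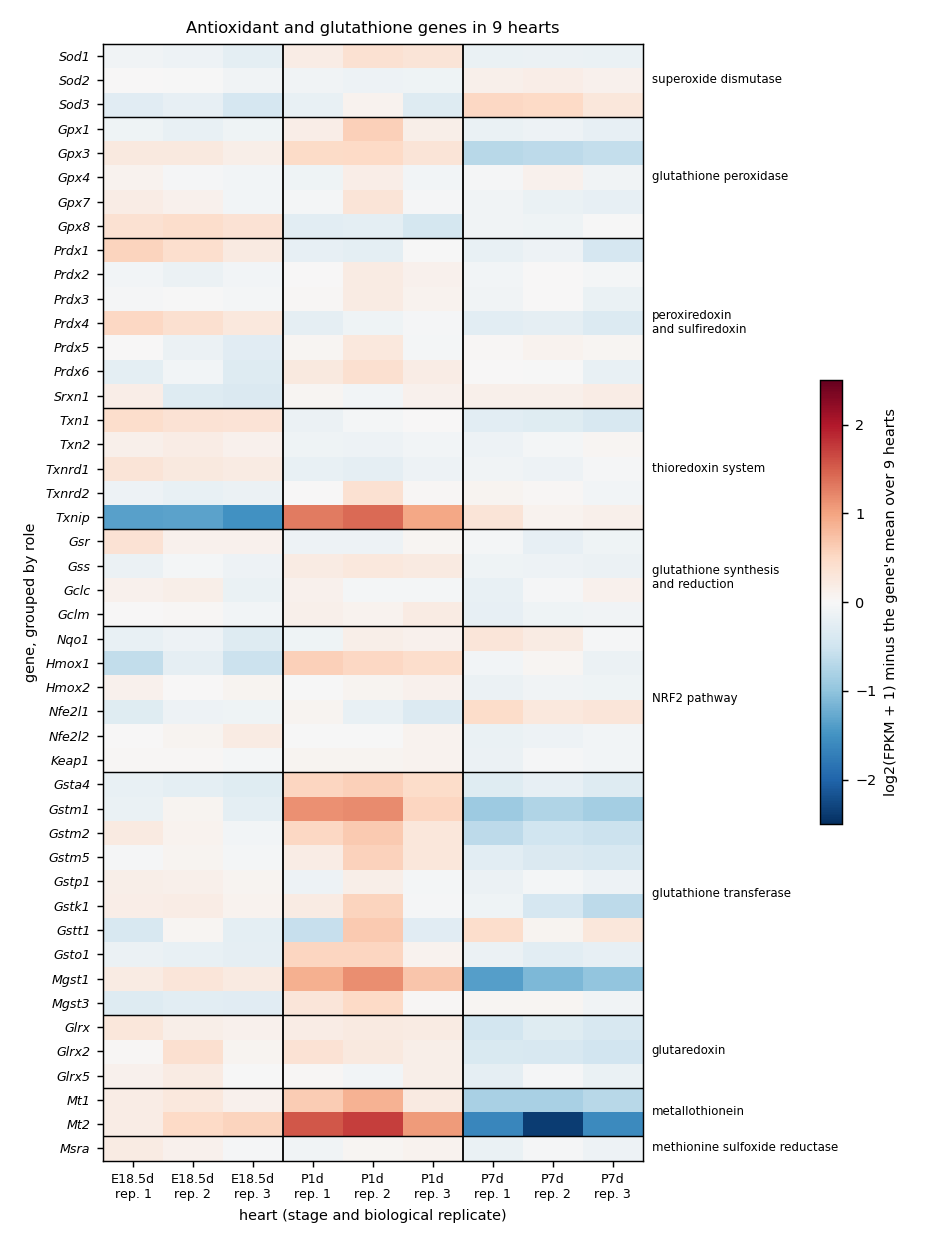
Heat map of the 46 genes (rows, grouped by role) in the 9 hearts (columns), coloured by log2(FPKM + 1) minus the gene's own mean over the 9 hearts, red above and blue below. *Txnip* is blue in the 3 E18.5d hearts and deepest red in the 3 P1d hearts, while *Mt1*, *Mt2*, *Gstm1*, *Mgst1* and *Gpx3* are red at P1d and blue in all 3 P7d hearts.

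At P1d against E18.5d, 18 of the 46 genes were higher and 7 lower (39.1% and 15.2%). Among all genes tested, 18.4% were higher and 27.6% lower in that comparison, or 6260 genes in all. The median change of the 46 was 0.14 on the log2 scale, beside -0.06 over all genes. At P7d against P1d the counts were 4 higher and 22 lower (8.70% and 47.8%), beside 15.5% and 28.6% of all genes (44.2% in all), with a median of -0.18 beside -0.09. At P7d against E18.5d, 7 were higher and 21 lower (15.2% and 45.7%), beside 12.5% and 36.9% of all genes (49.4% in all), with a median of -0.15 beside -0.17. Since whole hearts were sequenced, fewer cells of a type and less RNA per cell cannot be told apart in any of these counts. The 3 comparisons share hearts and are therefore given side by side. The hearts of the 2 stages did not overlap for 29 of the 46 genes at P1d against E18.5d, where this held for 54.4% of all genes, for 33 at P7d against E18.5d (62.5%) and for 31 at P7d against P1d (53.6%).

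The all-gene median of -0.17 at P7d against E18.5d was 0.01 after median-of-ratios scaling, which brings the median gene of each heart to 1 level, and the split of the 46 genes in that comparison became 14 higher and 12 lower, beside 23.2% and 18.7% of all genes (41.9% in all), with a median change of 0.06. On that scale P1d against E18.5d gave 22 higher and 5 lower, beside 23.6% and 22.3% of all genes (45.9% in all). P7d against P1d gave 6 higher and 17 lower, beside 23.5% and 18.2% (41.6% in all). An absolute change of at least 1 on the log2 scale, with the same threshold, was reached by 3 genes higher at P1d against E18.5d (*Txnip*, *Gstm1* and *Mt2*; 1.91% of all genes higher and 3.35% lower), by *Txnip* higher and *Mt2* and *Mgst1* lower at P7d against E18.5d (1.96% and 2.81%), and by 7 genes lower at P7d against P1d (*Mt2*, *Mgst1*, *Gstm1*, *Mt1*, *Gpx3*, *Txnip* and *Gstm2*; 1.78% and 2.29%). Between the 2 scales, 16 calls on the 46 genes were lost and 13 gained, all of the latter higher. Those gained at P1d against E18.5d were *Prdx5* (0.31, adjusted p = 0.0245), *Prdx3* (0.20, adjusted p = 0.0389), *Gclm* (0.23, adjusted p = 0.0192) and *Nqo1* (0.33, adjusted p = 0.0324), and at P7d against P1d they were *Txn2* (0.19, adjusted p = 0.0336) and *Txnrd1* (0.23, adjusted p = 0.0133). At P7d against E18.5d, 7 were gained, namely *Srxn1* (0.48, adjusted p = 0.0176), *Prdx5* (0.41, adjusted p = 0.00706), *Prdx6* (0.37, adjusted p = 0.00786), *Txnrd2* (0.34, adjusted p = 0.0229), *Prdx2* (0.27, adjusted p = 0.014), *Sod1* (0.21, adjusted p = 0.0397) and *Gss* (0.17, adjusted p = 0.045). In the same comparison *Gstm5* and *Gstk1* were lower on the deposited scale (-0.34 and -0.53, adjusted p of 0.0155 and 0.0213) but not after scaling (-0.13 and -0.34, adjusted p of 0.295 and 0.112). The call of *Txn2* there (-0.19, adjusted p = 0.0242) became 0.023 with an adjusted p of 0.783, and the remaining 13 lost calls are given beside their genes.

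The course most often seen was a higher level at P1d and a lower one again at P7d. It was called in both steps for 15 genes (*Gpx1*, *Gpx3*, *Gss*, *Gsta4*, *Gstm1*, *Gstm2*, *Gstm5*, *Gsto1*, *Hmox1*, *Mgst1*, *Mt1*, *Mt2*, *Prdx6*, *Sod1* and *Txnip*), and for 14 of them after median-of-ratios scaling, where *Prdx6* drops out. The share of all genes taking this course was not counted, so whether 15 is unusual was not tested. Both steps use the same P1d hearts, so a P1d mean high by chance would show as a rise and then a fall. Of the 15, *Hmox1* and *Txnip* were still higher at P7d than at E18.5d, and 7 ended lower than at E18.5d, whereas of the 14 on the other scale 4 ended higher and 6 lower. The opposite course, lower at P1d and higher at P7d, was called for *Gpx8* alone on the deposited scale, and for *Gpx8* and *Txnrd1* after median-of-ratios scaling. *Gclc*, *Gpx4*, *Gpx7*, *Gstt1*, *Keap1*, *Msra*, *Prdx5* and *Srxn1* were called in none of the 3 comparisons on the deposited scale, and all of these but *Prdx5* and *Srxn1* in none after median-of-ratios scaling. Within P1d, replicate 2 was the highest of the 3 hearts for 16 of the 18 genes higher at that stage, and replicate 3 the lowest for 13 of them. The same counts were not made for all genes. The FPKM of all genes summed to 1427608, 1794160 and 1508383 in P1d replicates 1 to 3. Protein-coding nuclear genes made up 34.5%, 29.6% and 33.0% of these sums.

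**Figure D2:**
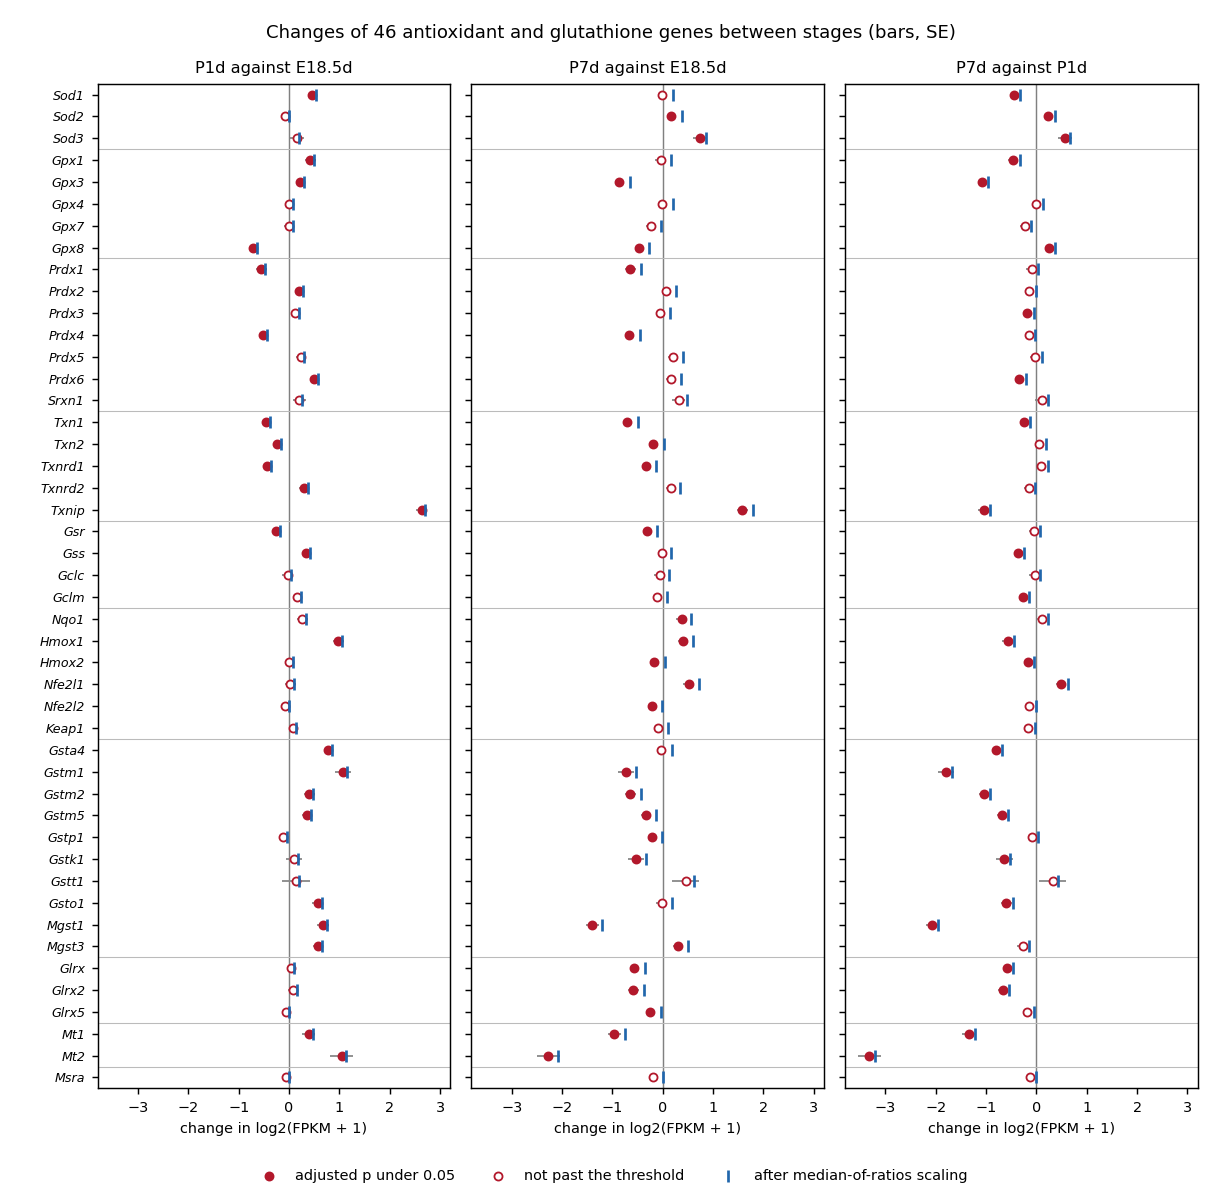
Change in log2(FPKM + 1) of each of the 46 genes in the 3 comparisons, with SE as bars, filled circles for an adjusted p under 0.05, open circles for genes not past it and blue ticks for the change after median-of-ratios scaling. The largest rise is *Txnip* at P1d (2.63), the largest fall is *Mt2* at P7d against P1d (-3.32), and the ticks lie to the right of the circles at P7d, most of all against E18.5d.

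*Txnip*, which binds thioredoxin and holds back its reductase activity and also limits glucose uptake, showed the largest rise of the 46. Its 3 E18.5d hearts were at 132, 132 and 117 FPKM. The P1d hearts were at 832, 896 and 662 FPKM, and the P7d hearts at 422, 356 and 370.1 FPKM. No 2 stages overlapped, and even the lowest P7d heart lay above every E18.5d heart. The rise at P1d was 6.27-fold in FPKM, or 2.63 ± 0.11 (SE) on the log2 scale with an adjusted p of 1.06e-06. At P7d it was still 1.58 ± 0.11 above E18.5d (adjusted p = 8.16e-06), after a drop from P1d (-1.05 ± 0.11, adjusted p = 0.000134). The change at P1d was 2.57 without the 4 hearts with *Xist* and 2.71 without the 3 hearts with *Scgb3a2*. *Txnip* lies at chr3:96557957-96561883 on the plus strand of GRCm38.

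*Txnip* is known as a target of the glucose-sensing factors that bind carbohydrate response elements, which are paired half-sites with 5 bases between them. The 250 bases before the RefSeq start of *Txnip* (GRCm38.p6, chr3:96557707-96557956, plus strand) are shown because they carry such a pair, in capitals, from 85 to 69 bases before the start. The search was for CACGNG followed after any 5 bases by CACGNG, on both strands.

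Txnip: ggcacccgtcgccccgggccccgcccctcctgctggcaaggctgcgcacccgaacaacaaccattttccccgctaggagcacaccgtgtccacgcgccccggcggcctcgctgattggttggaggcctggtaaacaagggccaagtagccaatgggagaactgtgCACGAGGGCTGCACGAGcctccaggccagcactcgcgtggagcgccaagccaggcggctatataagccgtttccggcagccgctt

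This pair was present in the same window of 14 of 27025 genes (0.0518%), and *Txnip* was the only one of the 39 members with a promoter entry that had it. A match of letters is a description of the sequence, and no binding was measured here.

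The thioredoxins and their reductases moved the other way at P1d, except *Txnrd2*. *Txn1*, the cytosolic thioredoxin, was at 55.1, 52.4 and 51.9 FPKM at E18.5d, at 36.2, 39.0 and 40.7 FPKM at P1d and at 33.5, 32.8 and 30.4 FPKM at P7d. Its 3 stages did not overlap, and every P7d heart was below every P1d heart. The change was -0.45 ± 0.06 (SE) at P1d (adjusted p = 0.000449) and -0.70 ± 0.06 at P7d against E18.5d (adjusted p = 3.14e-05). The further step from P1d to P7d (-0.25, adjusted p = 0.0105) was -0.12 with an adjusted p of 0.182 after median-of-ratios scaling.

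*Txnrd1*, the cytosolic thioredoxin reductase, went from 28.03, 26.7 and 26.1 FPKM at E18.5d to 19.5, 19.1 and 20.5 FPKM at P1d (-0.44 ± 0.06, adjusted p = 0.000325). At P7d it stood at 20.99, 20.4 and 22.04 FPKM, below all E18.5d hearts but overlapping P1d. Its call at P7d against E18.5d (-0.34, adjusted p = 0.00129) was -0.13 with an adjusted p of 0.09999 after median-of-ratios scaling. The mitochondrial pair differed in direction. *Txn2*, the mitochondrial thioredoxin, fell from a mean of 91.0 to 76.8 FPKM at P1d (-0.24, adjusted p = 0.00805), which after median-of-ratios scaling was -0.16 with an adjusted p of 0.0511. *Txnrd2*, the mitochondrial reductase, was higher at P1d (0.30, adjusted p = 0.0348), with 9.39 FPKM in replicate 2 and 7.04 and 7.16 FPKM in the other 2 hearts. Without that heart the change was 0.18 with an adjusted p of 0.0742, and the call was also lost without any 1 of the E18.5d hearts or P7d replicate 2 (adjusted p of 0.0504 to 0.0906). The files hold the values of *Txnrd2* under 2 identifiers.

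Ratios taken within 1 heart do not depend on how that heart was scaled. *Txnip* over *Txn1* was 2.26 to 2.53 at E18.5d, 16.2 to 23.0 at P1d and 10.9 to 12.6 at P7d, with no overlap between stages. *Txnrd1* over *Txnrd2* was 4.23 to 4.48 at E18.5d, 2.03 to 2.86 at P1d and 2.86 to 3.35 at P7d, so that the E18.5d hearts stood above all others while P1d and P7d lay side by side. *Txn1* over *Txn2* had means of 0.584, 0.503 and 0.405 at the 3 stages in order of age, again without overlap.

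The metallothioneins are small cysteine-rich proteins that bind zinc and copper and also scavenge radicals. *Mt2* (chr8:94172664-94173568 on GRCm38, plus strand) was at 23.2, 29.2 and 30.2 FPKM at E18.5d, at 61.8, 70.1 and 43.9 FPKM at P1d and at 5.93, 3.12 and 6.04 FPKM at P7d. The 3 stages did not overlap, and its P7d mean of 5.03 FPKM was 0.0858 of the P1d mean. The rise at P1d was 1.05 ± 0.23 (SE, adjusted p = 0.00474), and the fall from P1d to P7d was -3.32 ± 0.23 (adjusted p = 1.42e-05), the largest change of any member in any comparison. Against E18.5d, P7d was lower with a change of -2.27 ± 0.23 (adjusted p = 5.42e-05). Without the 3 hearts with *Scgb3a2*, the rise at P1d was 0.86 with an adjusted p of 0.178.

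*Mt1*, its neighbour at chr8:94179082-94180327, was at 315, 334 and 299.6 FPKM at E18.5d, at 428, 509 and 324 FPKM at P1d and at 158, 157 and 172 FPKM at P7d. P1d replicate 3 lay within the E18.5d range, whereas all P7d hearts were below all others. The change of *Mt1* at P7d was -0.96 ± 0.14 against E18.5d (adjusted p = 0.000419) and -1.35 ± 0.14 against P1d (adjusted p = 9.35e-05). Its call at P1d (0.39, adjusted p = 0.0426) was lost when any 1 heart other than P1d replicate 3 was left out, with changes of 0.24 (without P1d replicate 2) to 0.43 and an adjusted p of 0.0556 to 0.120. Both genes fell after P1d, but not to the same degree. *Mt1* over *Mt2* was 9.91 to 13.6 at E18.5d, 6.93 to 7.39 at P1d and 26.7 to 50.3 at P7d, and the 3 ranges did not overlap.

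Metallothionein genes are known to be switched on by the zinc sensor MTF1 through metal response elements. The 250 bases before the RefSeq start of each gene are shown with matches to the core of that element (TGCACNC or TGCGCNC, either strand) in capitals. They lie at chr8:94178839-94179088 for *Mt1* and chr8:94172368-94172617 for *Mt2*, both on the plus strand of GRCm38.p6.

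Mt1: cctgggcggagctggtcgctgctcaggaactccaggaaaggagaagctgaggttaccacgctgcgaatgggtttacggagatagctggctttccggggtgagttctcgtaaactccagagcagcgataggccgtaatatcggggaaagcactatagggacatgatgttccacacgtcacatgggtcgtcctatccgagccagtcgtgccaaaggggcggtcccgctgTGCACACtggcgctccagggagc

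Mt2: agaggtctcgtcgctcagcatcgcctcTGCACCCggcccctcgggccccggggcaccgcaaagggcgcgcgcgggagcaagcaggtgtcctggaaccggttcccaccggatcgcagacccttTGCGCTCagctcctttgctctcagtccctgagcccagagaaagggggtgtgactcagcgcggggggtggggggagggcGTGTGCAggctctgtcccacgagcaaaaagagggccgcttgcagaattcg

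The window of *Mt1* held 1 match and that of *Mt2* held 3. On GENCODE M21 *Mt1* starts at 94179082, inside its window, and *Mt2* at 94172664, beyond the end of its window. Bases outside the windows were not searched, so these are not full counts of the elements of either gene. The core is short and common. It occurred in this window of 23.8% of all genes and of 14 of the 39 members (35.9%), *Txnip* among them, so its presence does not set these genes apart. *Msra*, which repairs oxidised methionine, was at 18.2 to 21.1 FPKM by stage mean and was called in no comparison.

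The glutathione transferases, which join glutathione to reactive compounds and lipid peroxides, made up 10 of the 46 genes, of which 7 were higher at P1d than at E18.5d, beside 18.4% of all genes, and the other 3 not called. Against P1d, 7 were lower at P7d, beside 28.6% of all genes, and the other 3 not called. Both counts were the same after median-of-ratios scaling. *Gstm1* (chr3:108012255-108017973, minus strand) was at 39.99, 46.7 and 37.6 FPKM at E18.5d, 100.5, 102.8 and 65.0 FPKM at P1d and 23.4, 26.0 and 24.2 FPKM at P7d. Every P1d heart exceeded every E18.5d heart and every P7d heart was below both, although P1d replicate 3 lay well below the other 2 of its stage. *Gstm1* rose by 1.07 ± 0.16 (SE) at P1d (adjusted p = 0.00059) and was lower at P7d, with changes of -1.80 ± 0.16 against P1d (adjusted p = 4.69e-05) and -0.73 ± 0.16 against E18.5d (adjusted p = 0.00446).

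*Mgst1*, a transferase and peroxidase of membranes (chr6:138140316-138156755, plus strand), was at 19.6, 21.1 and 19.9 FPKM at E18.5d, 32.2, 39.1 and 27.9 FPKM at P1d and 5.94, 7.28 and 8.10 FPKM at P7d. The stages did not overlap, and the P7d mean was 0.352 of the E18.5d mean and 0.215 of the P1d mean. The changes were 0.67 ± 0.13 at P1d (adjusted p = 0.0023), -1.40 ± 0.13 at P7d against E18.5d (adjusted p = 3.33e-05) and -2.07 ± 0.13 against P1d (adjusted p = 9.3e-06). Its relative *Mgst3* took another course. It stood at 111, 116 and 116 FPKM at E18.5d, 174, 198 and 144 FPKM at P1d and 145, 146 and 132 FPKM at P7d, with all later hearts above E18.5d. It was higher at P1d (0.57 ± 0.10, adjusted p = 0.00167), and at P7d the change from E18.5d was 0.30 ± 0.10 (adjusted p = 0.0353), which did not hold when any 1 of the E18.5d hearts or of P7d replicates 1 and 2 was dropped (0.27 to 0.31, adjusted p of 0.0719 to 0.102).

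*Gsta4*, which clears the lipid peroxidation product 4-hydroxynonenal, peaked sharply at P1d. It was at 51.8, 49.6 and 47.7 FPKM at E18.5d, 85.8, 89.9 and 82.0 FPKM at P1d and 47.5, 51.6 and 47.0 FPKM at P7d. The P1d hearts were tightly grouped and far above both other stages, which overlapped. The rise was 0.78 ± 0.06 (adjusted p = 1.6e-05), the fall to P7d -0.81 ± 0.06 (adjusted p = 2.14e-05), and the change at P7d against E18.5d was -0.03 (adjusted p = 0.717). Both steps stayed past the threshold without the hearts with *Xist*. Of the others, *Gstm2* rose by 0.40 at P1d and then fell by 1.04 to P7d (adjusted p of 0.0116 and 8.84e-05). *Gstm5* rose by 0.35 and fell by 0.69 (adjusted p of 0.014 and 0.000464), and *Gsto1* rose by 0.57 and fell by 0.59 (adjusted p of 0.00217 and 0.00203). The Gstm genes are close paralogues in 1 cluster on chromosome 3, so reads may be shared among them. *Gstk1* was lower at P7d than at P1d (-0.63, adjusted p = 0.011), with P7d hearts at 9.90, 7.85 and 6.52 FPKM. *Gstp1*, whose values also stand under 2 identifiers, was lower at P7d than at E18.5d (-0.22, adjusted p = 0.0308), but after median-of-ratios scaling the change was -0.01 with an adjusted p of 0.919, and the call was lost without any 1 of E18.5d replicates 1 and 2 and P7d replicates 1 and 3 (-0.22 to -0.20, adjusted p of 0.0798 to 0.0902). *Gstt1* varied among the P1d hearts from 2.81 to 7.98 FPKM and was not called.

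**Figure D3:**
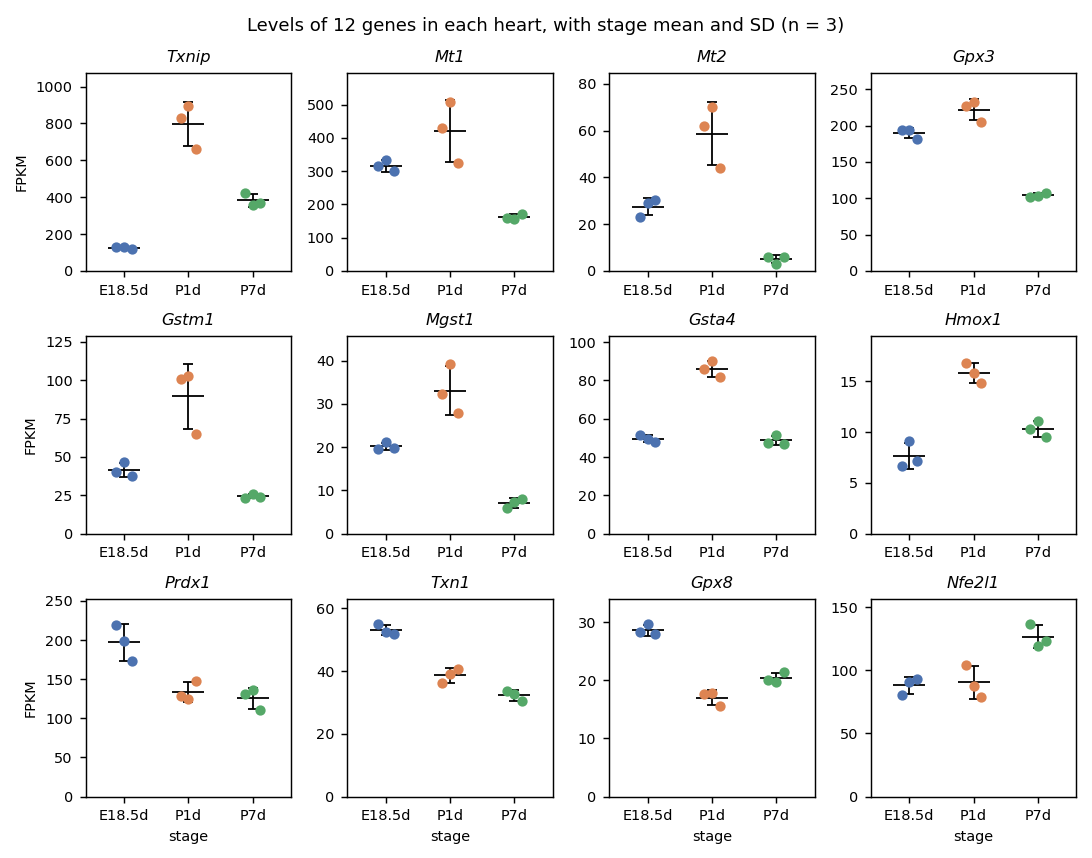
FPKM of 12 genes in each of the 9 hearts (points, replicates 1 to 3 from left to right; blue E18.5d, orange P1d, green P7d), with the stage mean and SD (n = 3) in black and axes from 0. *Txnip*, *Mt2*, *Gstm1*, *Mgst1*, *Gsta4* and *Hmox1* are highest in the 3 P1d hearts, *Prdx1*, *Txn1* and *Gpx8* in the E18.5d hearts and *Nfe2l1* in the P7d hearts.

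Of the 5 glutathione peroxidases, *Gpx1* and *Gpx3* were higher and *Gpx8* lower at P1d. *Gpx4*, which reduces lipid peroxides in membranes, was called in no comparison. It was at 384, 354 and 344 FPKM at E18.5d, 333, 406 and 345 FPKM at P1d and 353, 387 and 337 FPKM at P7d. The stages overlapped throughout, and the change at P7d was -0.01 ± 0.09 (SE) against either stage (adjusted p of 0.946 and 0.955). *Gpx3*, the secreted plasma form (chr11:54902453-54910377, plus strand), was at 193, 194 and 182 FPKM at E18.5d, 227, 233 and 206 FPKM at P1d and 101, 103 and 107 FPKM at P7d. Its P7d hearts lay close together at about the same level, below all others. The rise at P1d was 0.22 ± 0.06 (adjusted p = 0.0148), and 0.19 with an adjusted p of 0.0525 without E18.5d replicate 3. The fall at P7d was -0.86 ± 0.06 against E18.5d (adjusted p = 7.66e-06) and -1.08 ± 0.06 against P1d (adjusted p = 6.27e-06).

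*Gpx8*, a peroxidase of the endoplasmic reticulum, was at 28.2, 29.7 and 27.9 FPKM at E18.5d, 17.7, 17.9 and 15.5 FPKM at P1d and 20.1, 19.8 and 21.4 FPKM at P7d. The P1d hearts were the lowest and the E18.5d hearts the highest, without overlap. The change was -0.72 ± 0.07 at P1d (adjusted p = 4.75e-05), the largest fall of the 46 at that stage, and -0.47 ± 0.07 at P7d against E18.5d (adjusted p = 0.000496). From P1d to P7d it rose by 0.25 (adjusted p = 0.0157), and without P7d replicate 3 by 0.22 with an adjusted p of 0.0603. *Gpx1*, the main cytosolic form, rose at P1d from a mean of 185 to 251 FPKM (0.42, adjusted p = 0.0099), with replicate 2 at 304 FPKM above the other 2 at 226 and 222 FPKM. At P7d it was back at 180 FPKM (against P1d -0.46, adjusted p = 0.00685). *Gpx7* had stage means of 21.8 to 25.9 FPKM and was not called.

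The peroxiredoxins split by gene. *Prdx1* was at 219, 199 and 173 FPKM at E18.5d, 129, 124 and 148 FPKM at P1d and 130.5, 136 and 110.1 FPKM at P7d. All later hearts were below all E18.5d hearts, and P1d and P7d overlapped. The change was -0.55 ± 0.11 (SE) at P1d (adjusted p = 0.00297) and -0.65 ± 0.11 at P7d (adjusted p = 0.00114), both against E18.5d. Without the 3 hearts with *Scgb3a2*, which leaves only replicate 3 at E18.5d, these changes were -0.35 and -0.46. *Prdx4*, the form of the endoplasmic reticulum, was at 76.3, 70.2 and 63.8 FPKM at E18.5d, 45.5, 49.0 and 51.7 FPKM at P1d and 43.9, 45.1 and 41.9 FPKM at P7d. It was lower at both later stages, with changes of -0.51 ± 0.08 (adjusted p = 0.000583) and -0.67 ± 0.08 (adjusted p = 0.000116), and the E18.5d hearts stood apart from the rest. *Prdx2* was the most abundant peroxiredoxin. It was at 395, 374 and 394 FPKM at E18.5d, 417, 477 and 446 FPKM at P1d and 394, 417 and 399.6 FPKM at P7d, with the P1d hearts above those of E18.5d. Its change at P1d was 0.20 ± 0.06 (adjusted p = 0.025), and the call did not hold when either E18.5d replicate 2 or P1d replicate 2 was dropped (0.18 and 0.15, adjusted p of 0.0929 and 0.0636). *Prdx2* is also among the most abundant proteins of red cells, and the 9 erythroid marker genes found summed to 15706, 24734 and 12740 FPKM in the P1d hearts and to 11104, 8423 and 22752 FPKM in the E18.5d hearts. P1d replicate 2 was highest for both. E18.5d replicate 3 had the next highest erythroid sum, with *Prdx2* at 394 FPKM, and E18.5d replicate 1 had *Prdx2* at 395 FPKM. Of the 8 erythroid markers tested, 1 was higher and 1 lower at P1d. Their part in the change was not tested.

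*Prdx6* rose at P1d from a mean of 81.4 to 115 FPKM (0.50, adjusted p = 0.00158) and was lower again at P7d (-0.34, adjusted p = 0.0118), although that fall was -0.21 with an adjusted p of 0.0791 after median-of-ratios scaling. *Prdx3*, the mitochondrial form, was lower at P7d than at P1d (-0.19, adjusted p = 0.0368), and after median-of-ratios scaling this was -0.06 with an adjusted p of 0.557. Leaving out any 1 heart other than E18.5d replicate 3, P1d replicate 1 and P7d replicate 2 also ended that call (-0.20 to -0.14, adjusted p of 0.0539 to 0.129). *Prdx5* and *Srxn1*, the sulfiredoxin that repairs overoxidised peroxiredoxins, were not called on the deposited scale, but after median-of-ratios scaling *Prdx5* was higher at P1d and both were higher at P7d than at E18.5d, with the values given above. The ratio of *Prdx1* to *Prdx2* within 1 heart was 0.438 to 0.554 at E18.5d, 0.261 to 0.332 at P1d and 0.276 to 0.331 at P7d, so that the E18.5d hearts were above all others.

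Of the 3 superoxide dismutases, *Sod1* peaked at P1d, whereas *Sod2* and *Sod3* were not called there and were higher at P7d than at either earlier stage. *Sod1*, the cytosolic copper and zinc enzyme, averaged 231 FPKM at E18.5d, rose to 316 FPKM at P1d (0.45, adjusted p = 0.000561) and stood at 230.3 FPKM at P7d (against P1d -0.45, adjusted p = 0.00061). *Sod2*, the mitochondrial manganese enzyme, was at 79.6, 79.0 and 74.6 FPKM at E18.5d, 74.4, 73.1 and 74.0 FPKM at P1d and 86.5, 89.4 and 86.1 FPKM at P7d. The P7d hearts were the highest, and P7d was above P1d by 0.24 ± 0.05 (SE, adjusted p = 0.00386) and above E18.5d by 0.17 (adjusted p = 0.0192), the latter call ending when E18.5d replicate 3 or P7d replicate 2 was dropped (0.14 and 0.15, adjusted p of 0.0630 and 0.0634). *Sod3*, the extracellular enzyme, was at 0.90, 1.01 and 0.71 FPKM at E18.5d, 1.03, 1.45 and 0.84 FPKM at P1d and 2.31, 2.26 and 1.81 FPKM at P7d. Its P7d hearts were above all others, by 0.74 ± 0.14 against E18.5d (adjusted p = 0.00198) and 0.58 ± 0.14 against P1d (adjusted p = 0.0085). At these low levels the log2(FPKM + 1) scale understates the change, and the ratio of the P7d to the E18.5d mean was 2.44. The 6 fibroblast markers summed to 2238 to 2272 FPKM at P7d and 1314 to 1802 FPKM in the 6 earlier hearts. The collagens *Col1a1*, *Col1a2* and *Col3a1* and the matrix gene *Dcn* made up most of that sum. Of the 6 markers, 2 were higher at P7d than at E18.5d and 4 higher than at P1d, with none lower. *Pdgfra* was at 26.6 to 28.9 FPKM at E18.5d and 27.2 to 27.8 FPKM at P7d, and *Tcf21* at 24.5 to 27.3 FPKM and 22.8 to 26.2 FPKM. The part of these cells in the change of *Sod3* was not tested. *Sod1* over *Sod2* within 1 heart was 2.91 to 3.04 at E18.5d, 3.93 to 4.60 at P1d and 2.602 to 2.67 at P7d, the P1d hearts standing above the rest.

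**Figure D4:**
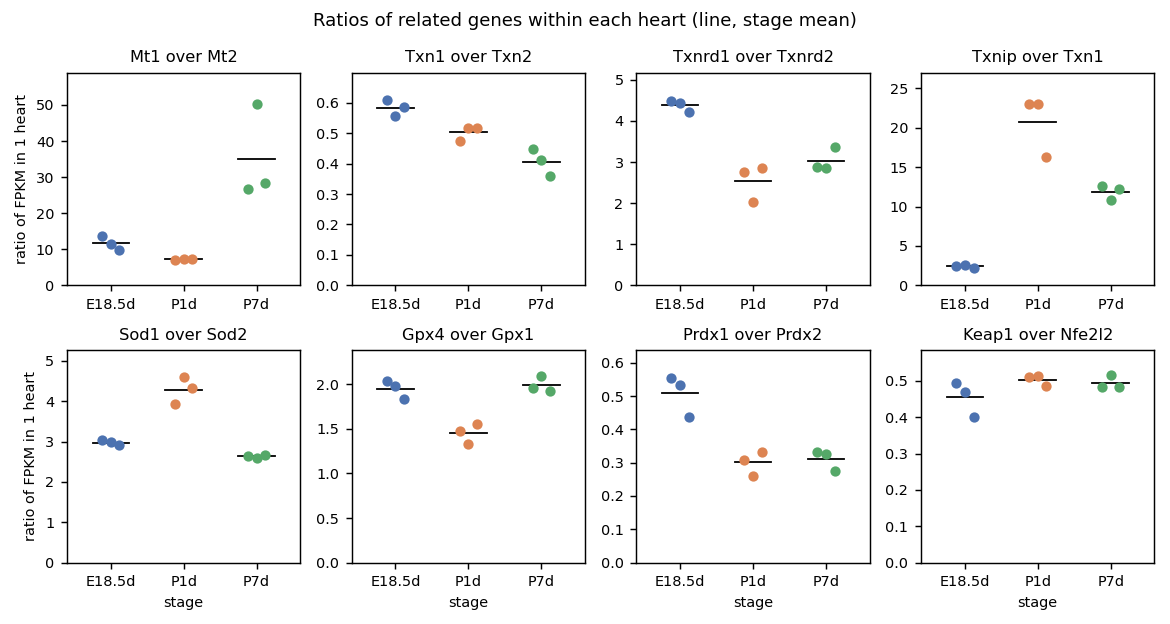
Ratios of the FPKM of related genes within each of the 9 hearts (points; blue E18.5d, orange P1d, green P7d; line, stage mean; axes from 0). *Txnip* over *Txn1* is 2.26 to 2.53 at E18.5d and at least 10.9 in the other hearts, *Mt1* over *Mt2* is highest at P7d, and *Keap1* over *Nfe2l2* overlaps between stages.

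Of the 4 genes that make and recycle glutathione, *Gsr* and *Gss* were called at P1d, in opposite directions. *Gsr*, glutathione reductase, was at 20.5, 17.1 and 17.0 FPKM at E18.5d, 14.4, 14.4 and 16.5 FPKM at P1d and 15.2, 13.6 and 14.6 FPKM at P7d, with all later hearts below E18.5d. The change was -0.25 ± 0.09 (SE) at P1d (adjusted p = 0.0424) and -0.31 at P7d (adjusted p = 0.0177), and after median-of-ratios scaling these were -0.18 (adjusted p = 0.138) and -0.11 (adjusted p = 0.375). Leaving out any 1 heart other than E18.5d replicate 3, P1d replicate 3 and P7d replicate 2 ended the call at P1d (-0.29 to -0.17, adjusted p of 0.0509 to 0.145), and the P7d call ended on dropping either E18.5d replicate 1 or P7d replicate 2 (-0.26 to -0.22, adjusted p of 0.0623 and 0.0666). *Gss*, glutathione synthetase, peaked at P1d, averaging 8.12 FPKM in E18.5d hearts and 10.6 FPKM in P1d hearts (0.34, adjusted p = 0.00142) and 7.98 FPKM at P7d (against P1d -0.37, adjusted p = 0.00114). *Gclc*, the catalytic subunit of glutamate cysteine ligase, the limiting enzyme of glutathione synthesis, had stage means of 5.27 to 5.56 FPKM and was not called. *Gclm*, the modifier subunit, had stage means of 11.1 to 13.7 FPKM and was lower at P7d than at P1d (-0.28, adjusted p = 0.00692), which after median-of-ratios scaling was -0.15 with an adjusted p of 0.0946.

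Of the 3 glutaredoxins, which remove glutathione from protein thiols, all 3 were called lower at P7d than at E18.5d, beside 36.9% of all genes. After median-of-ratios scaling 2 of the 3 were, beside 18.7%. At P1d none differed past the threshold (limma, also none at an unadjusted p under 0.05), beside 18.4% of all genes higher and 27.6% lower. *Glrx* had stage means of 41.7, 42.5 and 27.9 FPKM in order of age, and *Glrx2* of 29.6, 31.2 and 19.3 FPKM. Their changes at P7d against E18.5d were -0.56 (adjusted p = 0.000111) and -0.58 (adjusted p = 0.0013), and the P7d hearts lay below all others for both. *Glrx5*, which serves iron-sulfur cluster assembly, was lower with a change of -0.25 (adjusted p = 0.0295), and after median-of-ratios scaling the change was -0.04 with an adjusted p of 0.726. The call was also lost without any 1 of E18.5d replicates 1 and 2 and P7d replicates 1 and 3 (-0.25 to -0.20, adjusted p of 0.0700 to 0.110).

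Among the 6 genes of the NRF2 pathway, *Hmox1* changed most. *Hmox1*, the inducible haem oxygenase (chr8:75093621-75100589, plus strand), was at 6.64, 9.11 and 7.14 FPKM at E18.5d, 16.9, 15.8 and 14.9 FPKM at P1d and 10.3, 11.1 and 9.56 FPKM at P7d. The 3 stages did not overlap, with P7d between the other 2. The rise at P1d was 2.08-fold, or 0.97 ± 0.11 (SE, adjusted p = 0.00011). At P7d it was lower than at P1d (-0.57 ± 0.11, adjusted p = 0.00238) and still 0.40 ± 0.11 above E18.5d (adjusted p = 0.0124). Haem oxygenase is strongly expressed by macrophages that take up red cells. The 7 macrophage markers summed to 51.4 to 65.2 FPKM at E18.5d, 70.7 to 106 FPKM at P1d and 68.2 to 73.7 FPKM at P7d, of which 5 of 7 were higher at P1d than at E18.5d and none lower. The haemoglobin scavenger receptor *Cd163* was at 1.49 to 4.94 FPKM at P1d and 1.19 FPKM or less in the remaining 6 hearts. The markers *Adgre1* and *Mrc1* did not rise at P1d. *Adgre1* was at 2.9 to 3.58 FPKM at E18.5d and 2.07 to 3.06 FPKM at P1d. *Mrc1* was at 8.18 to 9.46 FPKM at E18.5d. P1d replicates 1 and 3 were below that range, at 7.98 and 6.85 FPKM, and P1d replicate 2 lay within it. The part of these cells in the rise of *Hmox1* was not tested.

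*Nfe2l1*, an NRF2 relative that controls proteasome genes, was at 80.6, 91.0 and 93 FPKM at E18.5d, 104, 87.8 and 78.7 FPKM at P1d and 137, 119.5 and 123 FPKM at P7d. The P7d hearts were above all others, by 0.52 ± 0.10 against E18.5d (adjusted p = 0.00298) and 0.49 ± 0.10 against P1d (adjusted p = 0.00474). *Nqo1*, a quinone reductase and a standard NRF2 target, was at 6.58, 6.88 and 5.89 FPKM at E18.5d, 7.01, 8.48 and 8.34 FPKM at P1d and 9.67, 8.96 and 7.41 FPKM at P7d. All later hearts were above E18.5d. The change was 0.37 ± 0.11 at P7d (adjusted p = 0.0171) and 0.26 at P1d (adjusted p = 0.0724), where after median-of-ratios scaling it was called higher (0.33, adjusted p = 0.0324). The P7d call was lost without E18.5d replicate 3, P7d replicate 1 or P7d replicate 2 (0.30 to 0.35, adjusted p of 0.0572 to 0.0660). *Nfe2l2* itself had stage means of 30.2, 28.6 and 25.8 FPKM in order of age. It was lower at P7d than at E18.5d (-0.21, adjusted p = 0.0246), and after median-of-ratios scaling the change was -0.01 with an adjusted p of 0.943. Without any 1 of E18.5d replicates 2 and 3 and P7d replicates 1 and 2 that call was lost (-0.22 to -0.16, adjusted p of 0.0529 to 0.0837). *Keap1* was at 12.8 to 14.3 FPKM by stage mean and was not called. Its ratio to *Nfe2l2* overlapped between all stages, with means of 0.455, 0.503 and 0.493. *Hmox2*, the constitutive haem oxygenase, was lower at P7d than at either earlier stage (-0.17 in both, adjusted p of 0.0243 and 0.0277), but after median-of-ratios scaling the changes were 0.035 (adjusted p = 0.686) and -0.04 (adjusted p = 0.623). Dropping replicate 1 or 3 of either stage ended the call against E18.5d (-0.18 to -0.15, adjusted p of 0.0566 to 0.0824), and dropping P1d replicate 2, P1d replicate 3 or any P7d heart ended that against P1d (-0.18 to -0.15, adjusted p of 0.0502 to 0.0871).

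NRF2 binds the antioxidant response element, whose core is TGACNNNGC. Within 250 bases before the RefSeq start, 8 of the 39 members with a promoter entry held this core on either strand (20.5%), as did 11.5% of all 27025 genes. They are shown with 10 bases on either side and the core in capitals, in the direction of the gene (GRCm38.p6), because they span members of each course, lower at P1d (*Prdx1*, *Txnrd1*), peaking there (*Mgst1*, *Gstm5*, *Mt2*, *Sod1*) and not called at that stage on the deposited scale (*Gclm*, *Nfe2l2*).

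Prdx1: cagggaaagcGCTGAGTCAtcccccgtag
Txnrd1: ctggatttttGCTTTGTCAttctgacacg
Mgst1: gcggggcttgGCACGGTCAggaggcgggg
Gstm5: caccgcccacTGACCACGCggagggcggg
Mt2: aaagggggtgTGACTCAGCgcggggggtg
Sod1: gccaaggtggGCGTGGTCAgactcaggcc
Gclm: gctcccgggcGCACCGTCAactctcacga
Nfe2l2: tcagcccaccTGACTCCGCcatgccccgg

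On GRCm38.p6 these stretches lie at chr4:116685456-116685484 (*Prdx1*), chr10:82859104-82859132 (*Txnrd1*), chr6:138140461-138140489 (*Mgst1*), chr3:107895802-107895830 (*Gstm5*), chr8:94172529-94172557 (*Mt2*), chr16:90220696-90220724 (*Sod1*), chr3:122245413-122245441 (*Gclm*) and chr2:75704885-75704913 (*Nfe2l2*). The gene runs on the minus strand for *Nfe2l2* and on the plus strand for the other 7. For *Mgst1* and *Txnrd1* the stretch lies inside the gene as GENCODE M21 draws it, ahead of an internal start that RefSeq uses, and for *Gstm5* it reaches over the annotated first bases. The core was therefore found before genes that rose, fell and were not called at P1d on the deposited scale. Windows for *Sod3*, *Prdx6*, *Gsr*, *Gclc*, *Hmox1*, *Gsta4* and *Msra* were not analysed here.

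By place in the cell, the 7 genes whose products act mainly in mitochondria (*Sod2*, *Prdx3*, *Txn2*, *Txnrd2*, *Gstk1*, *Glrx2* and *Glrx5*) gave 1 higher and 4 lower at P7d against E18.5d, beside 12.5% and 36.9% of all genes, and 2 higher and 1 lower after median-of-ratios scaling, beside 23.2% and 18.7%. With 7 genes and a count that turns with the scaling, no difference by compartment is read from this. Of the 3 of the endoplasmic reticulum (*Gpx7*, *Gpx8* and *Prdx4*), *Gpx8* and *Prdx4* were lower at P1d and at P7d against E18.5d on either scale, where 27.6% and 36.9% of all genes were lower (22.3% and 18.7% after median-of-ratios scaling).

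A list of 99 further genes of the same systems (catalase, NADPH supply, NRF2 partners and targets, glutathione turnover, selenoproteins and others) was read beside the 46, and 84 of them entered the tests. Of the 84, 24 were higher and 21 lower at P1d against E18.5d, beside 18.4% and 27.6% of all genes. At P7d against E18.5d, 12 were higher and 32 lower (14.3% and 38.1%), near the 12.5% and 36.9% of all genes. At P7d against P1d, 7 were higher and 39 lower (8.33% and 46.4%), beside 15.5% and 28.6%. After median-of-ratios scaling these became 28 and 14 (all genes 23.6% and 22.3%), 20 and 20 (23.2% and 18.7%), and 19 and 29 (23.5% and 18.2%). The peroxide enzyme catalase (*Cat*) was at 31.6, 34.0 and 32.9 FPKM at E18.5d, 60.1, 60.3 and 56.4 FPKM at P1d and 57.9, 59.3 and 61.0 FPKM at P7d. The P1d and P7d hearts overlapped and stood far above E18.5d. It rose by 0.83 ± 0.05 (SE) at P1d (adjusted p = 5.92e-06), and P7d differed from P1d by 0.01 (adjusted p = 0.884).

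Genes that supply NADPH for glutathione and thioredoxin were among the largest rises. *Me3*, the mitochondrial malic enzyme, was at 8.72, 7.57 and 7.61 FPKM at E18.5d, 13.1, 16.2 and 14.7 FPKM at P1d and 31.0, 34.7 and 32.4 FPKM at P7d. Each stage lay above the one before, and P7d was 4.10-fold above E18.5d (1.91 ± 0.09, adjusted p = 6.13e-07). The cytosolic *Me1* rose likewise, by 0.74 at P1d (adjusted p = 7.63e-05) and 1.21 at P7d (adjusted p = 3.73e-06), both against E18.5d. The C57BL/6J strain is known to carry a deletion within *Nnt*, the gene of the mitochondrial transhydrogenase, that leaves no functional enzyme, so its values here are of transcript only. *Nnt* had stage means of 86.4, 97.7 and 117 FPKM and was called in all 3 comparisons (0.18 at P1d and 0.43 at P7d against E18.5d, 0.26 at P7d against P1d). The first of these ended when E18.5d replicate 2, E18.5d replicate 3 or P1d replicate 2 was dropped (0.15 to 0.17, adjusted p of 0.0516 to 0.0664). At the same time other NADPH genes fell, and of 14 tested 3 were higher and 6 lower at P7d against E18.5d, beside 12.5% and 36.9% of all genes, and 3 and 3 after median-of-ratios scaling, beside 23.2% and 18.7%. One of them was *Aldh1l1*, a folate enzyme, with stage means of 1.78, 2.62 and 0.48 FPKM in order of age. At P7d against P1d its change was -1.28 (adjusted p = 0.00103). Its P7d level was near the floor, and it entered the tests through the earlier stages, where it is higher. *Abcc1*, which exports glutathione and its conjugates, rose at P7d from a mean of 3.72 to 9.72 FPKM (1.19, adjusted p = 1.64e-05). The cystine importer *Slc7a11* was at no more than 0.20 FPKM in any heart and was not tested.

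Among the NRF2 partners and targets, *Sqstm1* and *Ephx1* were higher at P1d than at E18.5d, by 0.97 (adjusted p = 0.00059) and 0.89 (adjusted p = 0.00114). *Bach1*, a repressor that competes with NRF2 at the same element, peaked at P1d with 16.5, 18.6 and 17.2 FPKM beside 12.2, 10.7 and 10.2 FPKM at E18.5d (0.62, adjusted p = 0.000339) and was lower at P7d (against P1d -0.49, adjusted p = 0.00151). *Maff*, a small partner of NRF2, was lower at P7d than at E18.5d with a change of -1.26 (adjusted p = 0.000493). Of the 14 genes of this group, 11 were lower at P7d than at P1d and 0 higher, beside 28.6% and 15.5% of all genes, and 9 lower and 1 higher after median-of-ratios scaling, beside 18.2% and 23.5%. Outside that group, *Sesn1*, a sestrin induced by stress and starvation, was at 59.99, 81.5 and 39.7 FPKM at P1d and at 25.1 to 26.4 FPKM at E18.5d. It rose by 1.15 ± 0.20 (adjusted p = 0.00136) with a wide spread at P1d and fell back at P7d (-1.25 against P1d, adjusted p = 0.001).

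Some relatives of the 46 followed them and others did not. *Mt3*, another metallothionein, was lower at P1d than at E18.5d (-0.99, adjusted p = 0.000224), whereas *Mt1* and *Mt2* were higher. *Gstm6* and *Gstm7* lie in the cluster of *Gstm1* and, like it, fell between P1d and P7d, with changes of -1.06 (adjusted p = 6.86e-05) and -1.20 (adjusted p = 3.06e-05). *Mgst2* was lower at P7d than at E18.5d with a change of -1.20 (adjusted p = 0.0013), at 0.31 to 0.48 FPKM. *Gstcd* and *Chac2*, the latter an enzyme that degrades glutathione, were lower at P1d than at E18.5d, with changes of -0.84 (adjusted p = 0.00116) and -0.82 (adjusted p = 0.000131), and *Chac2* rose again at P7d (0.66 against P1d, adjusted p = 0.000542).

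The calls on the 46 genes number 79 over the 3 comparisons, in 38 genes, and 60 of them were not ended by leaving out any 1 heart. Leaving out the 4 hearts with *Xist* leaves 1 heart each at E18.5d and P7d, whose spread is then taken to be that of P1d. All 79 changes kept their sign and 8 stayed past the threshold: *Txnip*, *Gsta4* and *Hmox1* higher and *Gpx8* lower at P1d against E18.5d, and *Mt2*, *Mgst1*, *Gpx3* and *Gsta4* lower at P7d against P1d. With *Xist* as a covariate in all 9 hearts, 68 of the 79 stayed. Leaving out the 3 hearts with *Scgb3a2* kept all signs and 40 of the 79 calls. These include *Txnip*, *Hmox1*, *Gsta4* and *Gstm1* at P1d against E18.5d, and *Txnip*, *Mt1*, *Mt2*, *Mgst1* and *Gpx3* at P7d against either stage. Markers of other cells also moved with stage. The 6 neutrophil genes summed to 46.9 to 69.7 FPKM at P1d, 5.9 to 11.5 FPKM at E18.5d and 15.1 to 19.4 FPKM at P7d, and all 4 that were tested were higher at P1d than at E18.5d. The 5 brown fat genes summed to 6.13 to 7.77 FPKM at E18.5d, 25.9 to 26.3 FPKM at P1d and 33.6 to 38.9 FPKM at P7d, with 2 of the 3 tested higher at P1d and 3 of 3 at P7d than at E18.5d. *Cidea* made up most of that sum, at 5.56 to 7.77, 21.6 to 23.0 and 25.1 to 29.4 FPKM. *Adipoq* was lower at P7d (0.86 to 1.01 FPKM) than at P1d (1.91 to 3.09 FPKM), and *Elovl3* was at 0 in 8 hearts. The 6 endothelial genes summed to 376 to 406 FPKM, 444 to 489 FPKM and 505 to 523 FPKM at the 3 stages, with 3 higher and 1 lower at P1d and 5 higher and 1 lower at P7d against E18.5d. Liver genes were highest in P1d replicate 2 (30.5 FPKM for 5 genes, and 7.89 FPKM or less elsewhere), the heart that was also highest for 27 of the 46 members within P1d, a count not made for all genes. The part of these cells in the changes of the 46 genes was not tested.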

How the data were processed

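Total RNA of whole hearts was extracted with Trizol and sequenced from NEBNext Ultra libraries, and per the labels each stage had 3 biological replicates. The authors deposited gene-level FPKM, each heart having its own column. The submitters' processing notes name STAR and GRCm38 (mm10), while the counting tool and the annotation are not given in the sources used here. The labels say biological replicates but not whether hearts came from separate litters, so p-values measure the spread between these hearts. Gene identifiers were matched without version to GENCODE M21 of GRCm38 (48144 of 48820), and 59 of 60 marker genes were found. No column belonged to another sample.

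FPKM are not counts, and depth was estimated from the spacing of low values. In each heart 89.6% to 93.4% of these lay near a whole number of fragments at the depth that fitted them best. The tolerance alone takes in 30.0%, which does not allow for the choice of depth on the same values. In 2 simulated hearts the depth was recovered within 0.893% and 0.595%. At this depth, 3 fragments on 1 kilobase are 0.0667 to 0.118 FPKM, which covers counting error only.

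Values were taken as log2(FPKM + 1), with a pseudocount of 1, and genes averaging 1 FPKM or more (13618) entered 1 limma fit of all 3 stages without covariates (limma 3.58.1, R 4.3.3; lmFit, then contrasts.fit and eBayes with a trend). P-values were adjusted by Benjamini-Hochberg, and 0.05 was the threshold. On simulated data of 13618 genes with 200 changed, 89.5% and 88% of these were called (P7d against E18.5d and against P1d). Of the unchanged genes, 19 and 5 were called. Each changed gene was moved by 1 on the log2 scale, and far fewer genes were changed than were called in the hearts. The rates therefore do not carry over to smaller changes. Values in every heart are given for members past the threshold without overlap that were among the 6 largest changes in a direction of a comparison, and for the 3 most abundant. Of the 99 further antioxidant genes, *Cat*, *Slc7a11*, *Nnt*, *Bach1* and, per comparison and direction, the 3 that changed most are named. The members, lists and rules were chosen with earlier results of these data known, so no count here is independent support for them. The alternatives were other pseudocounts, filters and scalings, the replicate block, an *Xist* covariate, and leaving out hearts. Promoter windows came from RefSeq (GRCm38.p6), which held 39 of the 46 members, and both strands were searched in the 250 bases before each start in Python 3.11.15. Figures were drawn with matplotlib 3.10.9.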

Additional observations from a re-analysis of the deposited data

How the results depend on the processing

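Counts below are of the 46 genes and then of the 84 further antioxidant genes tested, as higher and lower. Among 79 calls on the 46 genes, *Hmox2* and *Txn2* at P7d against E18.5d changed sign after median-of-ratios scaling (0.035 and 0.023, adjusted p = 0.686 and 0.783). With equal column sums, 11 of the 46 and 15 of the 84 were higher at P1d against E18.5d (8.63% of all genes, beside 18.4% as deposited), and 23 of the 84 lower at P7d against P1d (12.7%, beside 28.6%). With equal sums of protein-coding nuclear genes, 13 of the 46 were higher and 12 lower at P7d against E18.5d (20.2% and 21.1% of all genes), and 22 of the 84 higher at P7d against P1d (24.2%). Median of ratios gave 14 higher and 12 lower of the 46 and 20 and 20 of the 84 at P7d against E18.5d (23.2% and 18.7%), and 19 of the 84 higher at P7d against P1d (23.5%). Quantile normalization gave 14 and 13 of the 46 and 19 higher of the 84 at P7d against E18.5d (21.2% and 21.6%), and 16 of the 84 higher at P7d against P1d (21.1%). With the *Xist* covariate, 13 of the 84 were lower at P1d against E18.5d (21.2%). Without the 4 hearts with *Xist*, which leaves 1 heart at E18.5d and 1 at P7d, the 46 gave 3 and 1 at P1d against E18.5d, 0 and 0 at P7d against E18.5d (3 and 14 at an unadjusted p under 0.05 in limma) and 0 and 4 at P7d against P1d (2 and 16). The 84 gave 4 and 2, 1 and 0 (8 and 23) and 0 and 0 (7 and 23), while all genes gave 1.76% and 4.29%, 0.683% and 0.742%, and 0.551% and 0.764%. Without the 3 hearts with *Scgb3a2*, chosen after seeing the data, the 46 gave 6 and 1 at P1d against E18.5d, 9 lower at P7d against E18.5d and 2 higher at P7d against P1d, and the 84 gave 13 and 3 at P1d against E18.5d and 18 lower at P7d against E18.5d, while all genes gave 7.48% and 10.7% at P1d against E18.5d, 16.6% lower at P7d against E18.5d and 10.3% higher at P7d against P1d. Asking also for an absolute log2 change of at least 1 left 3 and 0, 1 and 2, and 0 and 7 of the 46 in the same order of comparisons, and 1 and 0, 3 and 4, and 1 and 5 of the 84. All genes gave 1.91% and 3.35%, 1.96% and 2.81%, and 1.78% and 2.29%. Leaving out 1 heart in turn gave 4 to 8 of the 46 higher at P7d against E18.5d, with 4 both without E18.5d replicate 3 and without P7d replicate 2. All genes gave 10.4% to 13.5% higher in that comparison, with 10.5% and 10.7% in those settings. The cause of these differences was not tested.

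Labels give replicates 1 to 3 at each stage. Deviations of same-numbered hearts correlated at -0.05 to 0.11 over genes, so the numbers were not taken to pair hearts. With the replicate block the 46 gave 18 and 7, 7 and 21, and 4 and 23 in the same order. All genes then gave 18.3% and 27.1%, 12.5% and 36.4%, and 15% and 28%. Not 1 of the 79 calls was lost under the pseudocount of 0.1 or the block. With a mean of at least 5 FPKM all 77 calls that were tested were kept, while those of *Sod3* were not tested. Depth limits the low members most, of which *Sod3* at 1.37 FPKM is the lowest.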
